A study of Homo sapiens with 16 samples.

Results

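NCI-H1975, a human lung adenocarcinoma cell line with an activating EGFR mutation and a second one that blunts early EGFR inhibitors, was compared after exposure to the chloroform fraction of Flos Magnoliae and under control conditions. The comparison used 8 of the 16 RNA-seq samples of the series. The chloroform parts of Flos Magnoliae, called the fraction here, gave 4 libraries (replicates 1 to 4), which were set against 4 control libraries with the same replicate numbers. Flos Magnoliae is the dried flower bud of Magnolia used in East Asian medicine, and a chloroform fraction holds the components of the extract that pass into chloroform. All 8 libraries are labelled as lung cancer cells of epithelial origin with genotype WT, and no allele or agent beyond these is named. The labels give no dose, exposure time, vehicle or composition of the fraction, and they do not say whether replicates are separate cultures, so each p-value rests on the variation among these libraries alone, and that variation may be technical. A further 4 libraries of the same cells treated with magnolin, a lignan of Magnolia buds, entered the fits to share the estimate of spread and served as a second reference. The series as a whole addresses gene expression changes in EGFR inhibitor resistance and compounds that might act on the genes involved.

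Values are FPKM, read fragments scaled to gene length and to library size, and differences are fraction minus control on the log2(FPKM + 1) scale, which understates the change of low genes. A gene was kept where at least 4 of the 8 libraries reached 1 FPKM, which left 12954 of 58735 genes. Replicates 1 and 2 came in a first table and replicates 3 and 4 in a second, so the tables are described apart and together. The tables were normalized separately, so levels set side by side across them are less comparable than those within a table. A gene was called changed at an adjusted p below 0.05 in limma with Benjamini-Hochberg adjustment.

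Several well-known programmes form the backdrop of the results. The aryl hydrocarbon receptor binds planar aromatic molecules and switches on cytochrome P450 genes such as CYP1A1. Dividing cells build mitotic proteins in the last part of the cell cycle from genes that share promoter elements bound by the MuvB complexes, and cells short of amino acids or under other stress translate ATF4, which drives genes for amino acid synthesis and uptake.

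The libraries of replicate 1 stood apart from all others in both groups before any comparison was made. The epithelial adhesion gene EPCAM was at 178, 11.6, 11.6 and 11.1 FPKM in fraction libraries 1 to 4, against 193, 14.4, 11 and 13 FPKM in control libraries 1 to 4. KRT7, a keratin of simple epithelia, followed the same split with 406, 61.9, 58.3 and 71 FPKM in the fraction libraries, against 354, 64.9, 58.8 and 61.2 FPKM in the controls. Of the defining lung epithelial markers, SFTPB and NAPSA were below 1 FPKM in every one of the 8 libraries, while the lung lineage factor NKX2-1 was at 3.51, 1.87, 1.71 and 2.45 FPKM in the fraction libraries, against 5.72, 1.61, 3.07 and 2.69 FPKM in the controls. Markers of other cell types were low: the sum over 13 of them ranged from 3.52 to 20.7 FPKM in fraction libraries, against 3.21 to 31.2 FPKM in controls, with 5 to 7 markers at 0 in each library. COL1A2, a fibrillar collagen gene, made up most of that sum outside replicate 1. The read totals rebuilt from FPKM were 15962587 to 18805740 in the fraction libraries, against 16642009 to 21312671 in the controls.

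The size of the response differed between the pairs. The number of genes that differed at least 2-fold was 218 in pair 1 and 173 in pair 2, against 665 in pair 3 and 672 in pair 4. Pairs 3 and 4, of the second table, thus held about equal numbers and pairs 1 and 2 far fewer. The standard deviation of the log2 differences over genes was 0.371, 0.303, 0.482 and 0.496 in pairs 1 to 4. Pearson's r of the differences, taken across genes (which are not independent replicates), was 0.631 between pairs 3 and 4 and 0.0679 between pairs 1 and 2. The pairs of the second table resembled each other, and those of the first did not. The r was 0.381 between pairs 2 and 3 and 0.281 between pairs 2 and 4. Pair 1 had an r of 0.0835 with pair 3 and 0.351 with pair 4.

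In the second table, 1230 genes rose (9.5% of those tested) and 1766 fell (13.6%), and 182 and 279 of these moved at least 2-fold. The total of 2996 was 1207 without control 3 and 976 without control 4. Without a block for the pairs, the first table alone gave no call in limma, where 112 genes had an unadjusted p below 0.05, and voom on rebuilt reads also gave none, with 61 below 0.05. With the block, 10 genes passed there (0.0772% of those tested), of which CYP1A1 and IL11 were the only protein-coding genes. The remaining 8 were short RNAs and pseudogenes.

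The genes called in the second table were then read in the first, which shares no library with it. Of the 1230 that rose, 1020 (82.9%) were above 0 in the first table, where their median difference was 0.20, against 0.59 in the second. Of the 1766 that fell, 1378 (78%) were below 0 in the first table, with a median of -0.14, against -0.54 in the second. Over all genes tested, 49.6% were above 0 and 50.4% below 0 in the first table. Differences in the first table thus mostly had the sign seen in the second. The second-table medians are raised in size by the choice of genes that passed there, so the sizes in the tables cannot be compared from these values.

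**Figure D1:**
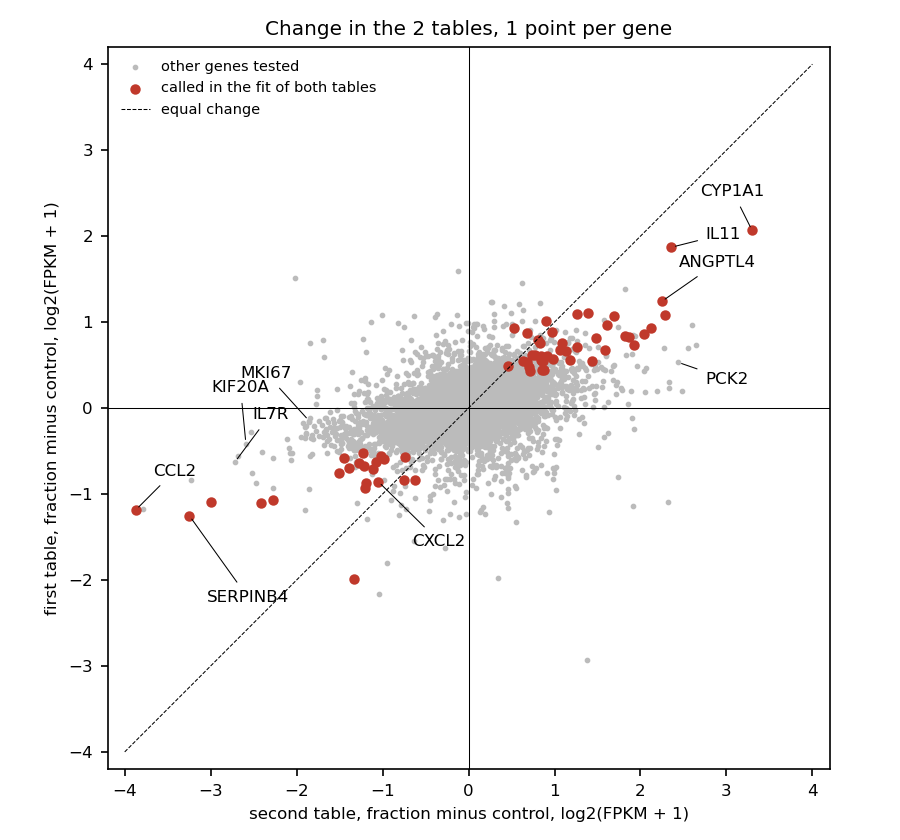
Fraction minus control difference of each of the 12954 genes, log2(FPKM + 1), in the second table (x axis) and the first table (y axis); red points are the 64 genes called in the fit of both tables and the dashed line marks equal change. Points spread more along the x axis than along the y axis, and CYP1A1, IL11 and ANGPTL4 reach at least 2-fold on this scale in both tables.

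Both tables fitted together, with the replicate number as a block, gave 64 called genes. Of these, 42 rose (0.324% of genes tested) and 22 fell (0.17%), and 60 were also called in the second table. All 64 moved the same way in all 4 pairs, as 28.4% of genes tested did. The fit with the block favours genes with like differences in the pairs, so this likeness adds no support to the calls. The count depended on the settings: it was 0 in limma without replicate 3, without replicate 4 and with the fraction and control libraries fitted alone, where 1243, 1009 and 2664 genes had an unadjusted p below 0.05. It was 39 without replicate 2 and 110 without replicate 1, and 40 of the 110 were among the 64. In the first table alone 2 of the 64 passed with the block and none without it, so the calls rest mostly on the second table. The genes are described below by what they encode.

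CYP1A1, the cytochrome P450 enzyme that hydroxylates polycyclic aromatic compounds (ENSG00000140465, hg38 chr15:74719542-74725610), was at 8.75, 15.7, 20.2 and 23.3 FPKM in fraction libraries 1 to 4, against 2.49, 1.66, 1.24 and 1.37 FPKM in control libraries 1 to 4. The groups did not overlap, and the lowest fraction value belonged to replicate 1, whose control was the highest. The log2 difference in both tables was 2.68 ± 0.28 (SE; limma, adjusted p = 0.00933), and it was 3.08 without replicate 1 (adjusted p = 0.0124). Without replicate 3 or replicate 4 it was 2.5 and 2.46 and did not pass (limma, adjusted p = 0.158 and 0.0626). The gene was past the threshold in 7 of 11 alternative settings, the most of any called gene.

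IL11, a cytokine of the IL-6 family that signals through gp130 (ENSG00000095752, hg38 chr19:55364389-55370463), was at 117, 13.1, 25 and 29 FPKM in the fraction libraries, against 21.4, 4.55, 4.68 and 4.21 FPKM in the controls. Replicate 1 was several times higher than the other replicates in both groups, and within every pair the fraction library was the higher one. The log2 difference was 2.11 ± 0.17 (limma, adjusted p = 0.00287), and 2.02 without replicate 1 (adjusted p = 0.0196). Without replicate 3 or replicate 4 it was 2.09 and 1.98 and did not pass (limma, adjusted p = 0.0758 and 0.0557).

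ANGPTL4, a secreted inhibitor of lipoprotein lipase induced by fasting and low oxygen, was at 64, 83.7, 166 and 219 FPKM in the fraction libraries, against 29.5, 31.4, 36.4 and 42.6 FPKM in the controls. The lowest fraction library was above the highest control. Its log2 difference was 1.74 ± 0.23 (limma, adjusted p = 0.0274) and 1.96 without replicate 1 (adjusted p = 0.0308). Without replicate 3 or replicate 4 it was 1.61 and 1.55 and did not pass (limma, adjusted p = 0.208 and 0.173). On the log2(FPKM + 1) scale, CYP1A1, IL11 and ANGPTL4 were the only 3 genes (0.0232% of those tested) at least 2-fold higher in all 4 pairs, and no gene was 2-fold lower in all 4. On FPKM itself, without the added 1, genes at lower levels described next also passed 2-fold in each pair, among them ADAM8 and MIR210HG (higher) and CCL2, SERPINB4 and CP (lower).

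**Figure D2:**
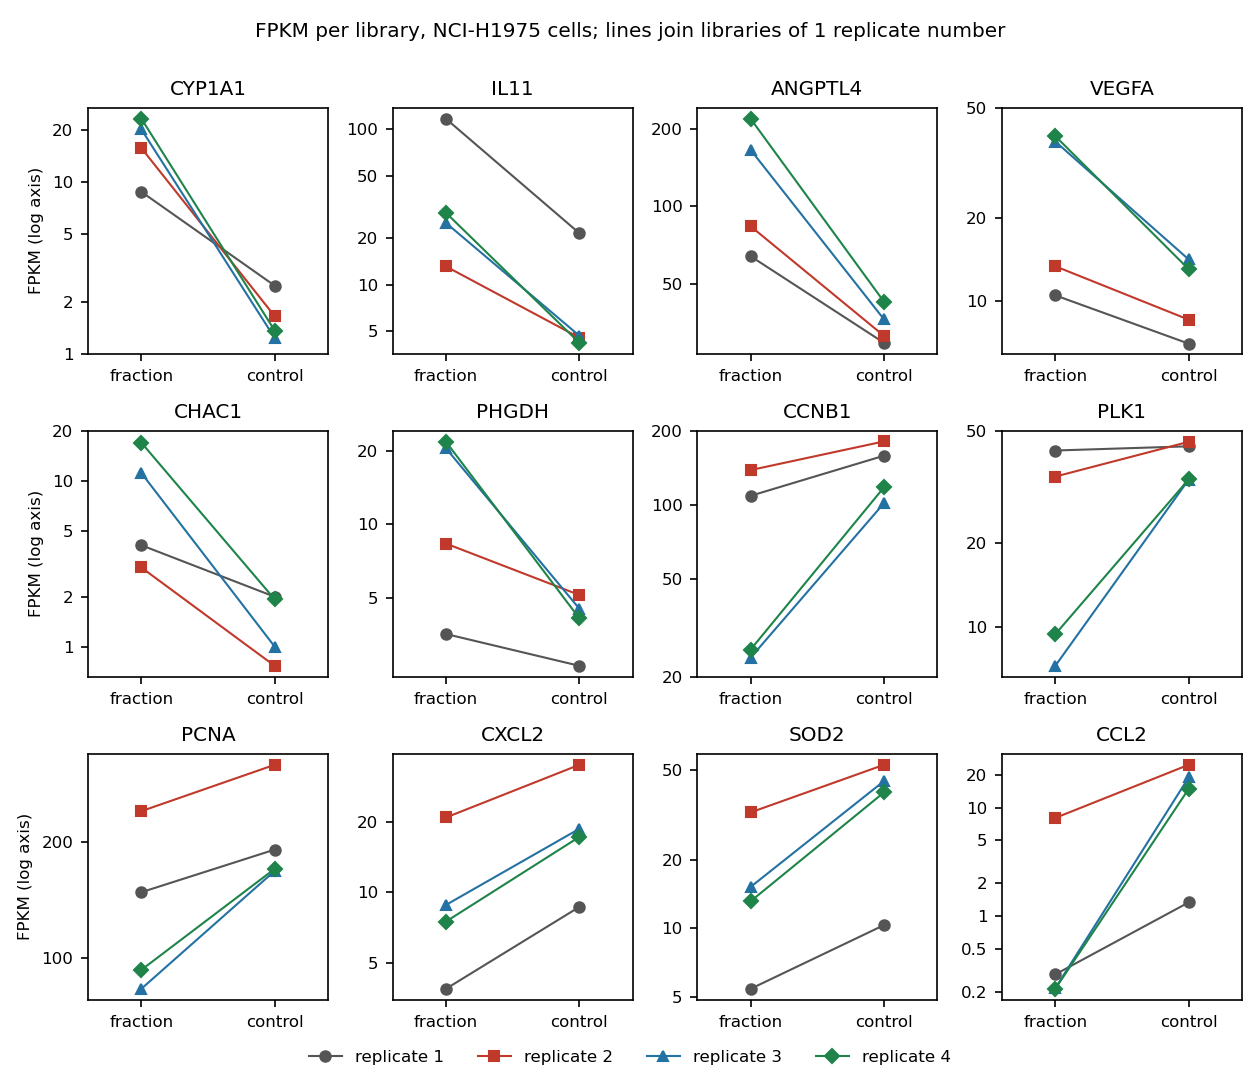
FPKM (log axis) of 12 genes in each library, fraction left and control right; lines join the libraries of 1 replicate number. CYP1A1, IL11 and ANGPTL4 are higher in the fraction library of every pair, CXCL2, SOD2 and CCL2 are lower in every pair, and for CCNB1 and PLK1 pairs 3 and 4 part far more than pairs 1 and 2.

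Other secreted and cell-surface genes were among the 42 that rose. VGF, a precursor of neuroendocrine peptides, was at 119, 14.1, 26 and 37.5 FPKM in the fraction libraries, against 47.4, 7.36, 5.09 and 6.23 FPKM in the controls (log2 difference 1.68 ± 0.23, adjusted p = 0.0274). STC2, a secreted glycoprotein and a target of ATF4, was at 31.7, 77.9, 141 and 158 FPKM in the fraction libraries, against 22.9, 37.8, 38.1 and 38.9 FPKM in the controls (log2 difference 1.33 ± 0.24, adjusted p = 0.0489). Both genes were higher in the fraction library of each pair, by more in pairs 3 and 4 than in pairs 1 and 2. ADAM8, a membrane metalloprotease, was at 19.5, 8.01, 15.7 and 21.8 FPKM in the fraction libraries, against 7.39, 3.85, 7.36 and 6.9 FPKM in the controls (log2 difference 1.18 ± 0.12, adjusted p = 0.00933). SEMA7A, a semaphorin anchored in the membrane, was at 30.6, 8.01, 17.3 and 22.5 FPKM in the fraction libraries, against 19.6, 4.18, 7.15 and 8.24 FPKM in the controls (log2 difference 0.98, adjusted p = 0.0279). The groups did not overlap for ADAM8, and for SEMA7A they overlapped across replicate numbers but not within a pair. HAS3, a hyaluronan synthase, rose by 0.92, ANPEP, an aminopeptidase of the cell surface, by 0.96, and COL7A1, the collagen of anchoring fibrils, by 0.79 on the log2 scale.

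A pair of sugar carriers and an enzyme of glucose metabolism were also among the 42. SLC37A2, a sugar phosphate antiporter of the endoplasmic reticulum, was at 13.2, 23.2, 45 and 48.4 FPKM in the fraction libraries, against 7.72, 7.97, 13.7 and 13.9 FPKM in the controls (log2 difference 1.38 ± 0.17, adjusted p = 0.02). SLC2A1, the basal glucose transporter, was at 78.6, 38.6, 48 and 52.6 FPKM in the fraction libraries, against 61.1, 26.7, 29.5 and 30.9 FPKM in the controls (log2 difference 0.58 ± 0.099, adjusted p = 0.0489). PFKFB4, which sets the level of fructose 2,6-bisphosphate, was at 8.49, 4.37, 7.47 and 8.57 FPKM in the fraction libraries, against 5.06, 2.84, 4.03 and 3.16 FPKM in the controls (log2 difference 0.77, adjusted p = 0.0489). The change of SLC2A1 was the smallest of these in size and was seen in every pair. MIR210HG, the host transcript of a microRNA induced by low oxygen, was at 1.53, 1.81, 4.66 and 6.15 FPKM in the fraction libraries, against 0.264, 0.543, 0.645 and 0.308 FPKM in the controls (log2 difference 1.53, adjusted p = 0.0456).

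The 22 genes that fell held several chemokines and other inflammatory genes. CXCL2, a chemokine that draws neutrophils, was at 3.87, 20.9, 8.84 and 7.51 FPKM in the fraction libraries, against 8.67, 35.1, 18.7 and 17.3 FPKM in the controls (log2 difference -0.95 ± 0.11, limma, adjusted p = 0.02). Its difference was -0.941 without replicate 1 (adjusted p = 0.0341). Without replicate 3 or replicate 4 it was -0.937 and -0.903 and did not pass (limma, adjusted p = 0.208 and 0.173). SOD2, the mitochondrial superoxide dismutase and a classical target of NF-kB, was at 5.42, 32.5, 15.3 and 13.2 FPKM in the fraction libraries, against 10.4, 52.8, 44.7 and 39.9 FPKM in the controls (log2 difference -1.13 ± 0.15, adjusted p = 0.0274). In both genes the groups overlapped across replicate numbers, and each fraction library was below the control of its own number. CCL2, a chemokine that draws monocytes, was at 0.29, 8.03, 0.216 and 0.213 FPKM in the fraction libraries, against 1.34, 24.8, 18.9 and 14.9 FPKM in the controls (log2 difference -2.53 ± 0.46, adjusted p = 0.0489). CXCL6, another neutrophil chemokine, was at 1.13, 1.95, 0.141 and 0.0555 FPKM in the fraction libraries, against 2.15, 8.24, 5.17 and 4.55 FPKM in the controls (log2 difference -1.76, adjusted p = 0.0446). In fraction libraries 3 and 4, CCL2 and CXCL6 were below 1 FPKM, at levels where few reads carry the value. The CCL2 effect differed between the tables (second minus first -2.69, adjusted p = 0.0208).

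The clade B serpins SERPINB4 and SERPINB3, inhibitors of cysteine and serine proteases in squamous epithelium, also fell, though near-identical sequences mean their reads could have been split between them. SERPINB4 was at 0.442, 5.81, 1.59 and 0.992 FPKM in the fraction libraries, against 1.39, 22.3, 21 and 20.1 FPKM in the controls (log2 difference -2.25 ± 0.38, adjusted p = 0.0489). CP, the plasma copper oxidase ceruloplasmin, was at 1.3, 0.974, 0.539 and 0.539 FPKM in the fraction libraries, against 2.77, 2.23, 2.34 and 2.32 FPKM in the controls (log2 difference -0.91, adjusted p = 0.0279). The controls of CP lay within a narrow range in all replicates, replicate 1 included. The complement protease C1S was at 0.85, 9.38, 6.88 and 7.6 FPKM in the fraction libraries, against 1.4, 16.4, 16.2 and 15 FPKM in the controls (log2 difference -0.79, adjusted p = 0.0489).

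Growth factors of the TGF-beta superfamily were called in both directions. BMP2 rose, with 11.9, 28.7, 29 and 29.7 FPKM in the fraction libraries, against 10.01, 15.1, 15.5 and 16.3 FPKM in the controls (log2 difference 0.70, adjusted p = 0.0489). BMP4 fell, with 0.662, 12.3, 8.61 and 8.03 FPKM in the fraction libraries, against 1.44, 19.3, 26.1 and 22.8 FPKM in the controls (log2 difference -1.01, adjusted p = 0.0489). TGFB2 fell as well, with 6.08, 7.97, 4.18 and 4.44 FPKM in the fraction libraries, against 12.5, 10.3, 9.97 and 10.4 FPKM in the controls (log2 difference -0.85, adjusted p = 0.0456). BMP2 and BMP4 are closely related ligands and moved in opposite directions in the 4 pairs. FBXO32, an F-box ubiquitin ligase known for its part in muscle atrophy, was at 12.3, 7.93, 3.78 and 3.52 FPKM in the fraction libraries, against 20.2, 12.5, 10.3 and 10.2 FPKM in the controls (log2 difference -0.96, adjusted p = 0.0377).

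Further genes called in both tables together included those of proteases and of a membrane protein. MMP1, interstitial collagenase, was at 29, 3.88, 2.4 and 3.23 FPKM in the fraction libraries, against 16.7, 1.47, 1.29 and 1.45 FPKM in the controls (log2 difference 0.78, adjusted p = 0.0489). MMP1 did not pass in the second table alone (0.68, limma, adjusted p = 0.11) and passed in 3 of 11 alternative settings. PDZK1IP1, a small membrane protein of epithelial tumours, fell, at 0.0364, 1.42, 0.342 and 0.168 FPKM in the fraction libraries, against 0.355, 7.11, 6.09 and 4.18 FPKM in the controls (log2 difference -1.67, adjusted p = 0.0489). PRSS23, a secreted serine protease, fell as well, at 20.2, 20.7, 12.5 and 13.3 FPKM in the fraction libraries, against 26.2, 34.2, 31 and 32.1 FPKM in the controls (log2 difference -0.88, adjusted p = 0.0489). Of the 64 genes, 52 were protein-coding and 3 were under 300 bases long.

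Several protein-coding genes outside the lists led the second table. KLHDC7B, a Kelch-domain gene, was at 0.306, 1.97, 14.2 and 16.1 FPKM in the fraction libraries, against 0.378, 1.05, 2.29 and 2.1 FPKM in the controls (2.34 ± 0.18, adjusted p = 0.000565). ADM2, a peptide hormone of the calcitonin family, was at 0.575, 1.76, 9.89 and 11.2 FPKM in the fraction libraries, against 0.465, 0.939, 1.31 and 1.25 FPKM in the controls (2.34, adjusted p = 0.000163). Neither gene separated the groups in the first table. MGP, an extracellular inhibitor of calcification, fell, at 0.337, 3.98, 1 and 0.734 FPKM in the fraction libraries, against 0.348, 9.73, 13.2 and 8.97 FPKM in the controls (-2.68, adjusted p = 0.000401). CD14, the co-receptor for bacterial lipopolysaccharide, fell too, at 1.42, 7.65, 4.13 and 5.07 FPKM in the fraction libraries, against 2.11, 23.5, 32.6 and 20.9 FPKM in the controls (-2.28, adjusted p = 0.000953).

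Of 8 tested members of the aryl hydrocarbon receptor list, 5 rose and none fell in the second table, where 9.5% and 13.6% of all genes tested did. The list's median was 0.65 there, against -0.03 over all genes. In the first table the median was 0.45, against -0.0016 over all genes, and 6 of the 8 were higher in all 4 pairs, a direction held by 13.7% of genes tested. CYP1B1, which metabolises oestrogens and aromatic compounds, was at 95.7, 364, 431 and 380.4 FPKM in the fraction libraries, against 68.6, 199, 189 and 198 FPKM in the controls, and passed in both tables together (log2 difference 0.87 ± 0.12, adjusted p = 0.0274). Genes that feed back on the receptor were also higher. TIPARP, an ADP-ribosyltransferase that curbs the receptor, was at 26.8, 52.2, 54.5 and 45.2 FPKM in the fraction libraries, against 25.2, 24.4, 19.8 and 22.8 FPKM in the controls, with a log2 difference of 1.19 in the second table (adjusted p = 0.00121). AHRR, the repressor that competes for the receptor's partner, was at 1.08, 6.46, 10.3 and 10.5 FPKM in the fraction libraries, against 0.91, 3.42, 5.31 and 5.87 FPKM in the controls (0.79 in the second table, adjusted p = 0.00378). Replicate 1 held the lowest values of AHR, AHRR and CYP1B1 in both groups and showed almost no difference for TIPARP. The receptor AHR itself was at 9.47, 42.1, 41.8 and 37.1 FPKM in the fraction libraries, against 14.2, 42.8, 40.0 and 40.0 FPKM in the controls, and its partner ARNT had a second-table difference of -0.12 (adjusted p = 0.449). The dioxin response element, searched as TNGCGTG on both strands of the 300 bases around RefSeq starts, was in 2 of 7 list members with a listed promoter (28.6%), in 7.5% of promoters of genes tested and in 5.51% of all promoters.

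Among 23 NRF2 targets, the antioxidant and glutathione genes, 9 rose and 3 fell in the second table, where 9.5% and 13.6% of all genes tested did. The list's median was 0.40 there and 0.05 in the first. Iron storage and cystine uptake were among the rises. Ferritin light chain FTL was at 1335, 2607, 3462 and 3818 FPKM in the fraction libraries, against 1098, 2229, 1558 and 1642 FPKM in the controls (1.18 in the second table, adjusted p = 0.000428). The haem oxygenase HMOX1 was at 31.3, 15, 29.9 and 36.4 FPKM in the fraction libraries, against 28.8, 16.1, 16.9 and 17.8 FPKM in the controls (0.89, adjusted p = 0.00252). For HMOX1 the first-table libraries of the groups lay side by side. SLC7A11, the cystine importer and also an ATF4 target, was at 7.65, 6.87, 17.9 and 15.2 FPKM in the fraction libraries, against 8.18, 3.09, 2.94 and 3.61 FPKM in the controls (2.04, adjusted p = 0.000326). NQO1, a quinone reductase shared with the receptor list, and the export pump ABCC3 rose as well (0.50 and 1.20). The 3 that fell were the peroxidase PRDX1 (-0.45), the glutathione reductase GSR (-0.39) and the ketosteroid reductase AKR1C3 (-0.49), which has near-identical relatives. Rises were thus more frequent on the list than over all genes, and falls about as frequent. The glutathione synthesis genes GCLC and GCLM did not pass, with differences of 0.39 and 0.13.

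Mitotic genes fell nearly throughout in the second table. Of 75 tested genes on 4 lists of mitosis (kinases and cyclins, spindle, kinetochore, anaphase and cytokinesis), 74 fell and none rose, with a median of -1.39 in the second table and -0.26 in the first. In bulk RNA, fewer cells in a phase and less RNA per cell cannot be told apart. In the 4 pairs separately, 46 of the 75 were lower in each pair, a direction held by 14.7% of genes tested, and none of the 75 was called in both tables together.

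Promoters are shown for the mitotic genes because many share 1 element, the cell cycle genes homology region (CHR), at which MuvB complexes repress or activate transcription. The sequences run 5′ to 3′ along the gene, cover the 250 bases before the RefSeq start (GRCh38.p14), and carry in capitals each match to TTTGAA or TTCGAA on either strand. CCNB2 (chr15:59104896-59105145, plus strand), PLK1 (chr16:23678639-23678888, plus strand) and BUB1B (chr15:40160819-40161068, plus strand) each hold 1 match close to the start. MKI67 (chr10:128126424-128126673, minus strand) holds 2, and KIF20A (chr5:138178862-138179111, plus strand) has none of these letters in this window.
CCNB2: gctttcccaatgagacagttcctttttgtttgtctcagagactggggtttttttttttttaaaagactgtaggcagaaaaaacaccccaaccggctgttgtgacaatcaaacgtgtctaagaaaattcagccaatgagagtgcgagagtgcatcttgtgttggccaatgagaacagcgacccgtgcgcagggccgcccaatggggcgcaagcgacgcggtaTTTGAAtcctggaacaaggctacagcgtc
PLK1: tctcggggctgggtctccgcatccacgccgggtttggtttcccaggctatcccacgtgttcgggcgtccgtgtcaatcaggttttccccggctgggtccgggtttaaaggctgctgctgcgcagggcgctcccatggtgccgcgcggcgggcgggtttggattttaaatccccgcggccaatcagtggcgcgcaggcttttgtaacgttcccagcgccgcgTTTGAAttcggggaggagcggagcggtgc
BUB1B: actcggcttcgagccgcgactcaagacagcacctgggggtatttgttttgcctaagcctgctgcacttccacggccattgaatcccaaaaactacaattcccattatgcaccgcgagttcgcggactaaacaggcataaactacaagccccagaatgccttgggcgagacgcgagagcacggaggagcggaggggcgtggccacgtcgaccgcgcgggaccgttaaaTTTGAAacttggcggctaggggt
MKI67: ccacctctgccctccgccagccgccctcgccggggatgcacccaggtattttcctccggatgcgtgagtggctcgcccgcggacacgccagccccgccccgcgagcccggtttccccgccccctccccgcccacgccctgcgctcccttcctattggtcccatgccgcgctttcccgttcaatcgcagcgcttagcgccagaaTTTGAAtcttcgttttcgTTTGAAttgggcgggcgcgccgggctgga
KIF20A: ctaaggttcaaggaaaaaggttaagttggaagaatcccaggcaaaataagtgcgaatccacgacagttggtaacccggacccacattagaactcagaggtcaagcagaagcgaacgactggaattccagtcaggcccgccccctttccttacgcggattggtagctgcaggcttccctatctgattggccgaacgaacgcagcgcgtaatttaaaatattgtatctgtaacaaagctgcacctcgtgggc
The first match base lies at -29 in CCNB2, -29 in PLK1, -23 in BUB1B, and -47 and -29 in MKI67, counted from the start. Over the 300-base windows of the table, which add 50 bases past the start, CHR letters were in 46 of 66 mitotic genes with a promoter (69.7%). They were in 16.6% of all 27305 promoters, in 10.9% of those of genes tested, in 19.9% of genes that fell and in 6.28% of genes that rose in the second table. The CCAAT box, searched as CCAAT on both strands, was in 49 of the 66 (74.2%), against 37.1% of genes tested. A match is a description of the letters and not a bound site.

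The mitotic kinases and cyclins fell with 1 exception in the second table. Of 16 mitotic kinases, cyclins and their partners, 15 fell and none rose, with medians of -1.55 in the second table and -0.25 in the first. CCNB2, a cyclin of the mitotic kinase, was at 29.7, 27.4, 6.09 and 7.22 FPKM in the fraction libraries, against 36.3, 37.8, 24.9 and 26.7 FPKM in the controls (-1.81 ± 0.12 in the second table, adjusted p = 0.000366). PLK1, the polo kinase that drives mitotic entry, was at 42.8, 34.5, 7.27 and 9.44 FPKM in the fraction libraries, against 44.3, 45.9, 33.7 and 33.7 FPKM in the controls (-1.90 ± 0.12, adjusted p = 0.0003). In pair 1 PLK1 hardly differed, in pair 2 it was somewhat lower, and in pairs 3 and 4 the fraction libraries were far below their controls. The spindle checkpoint kinase BUB1B was at 17.4, 17.1, 4.22 and 5.4 FPKM in the fraction libraries, against 21.7, 18.6, 19.8 and 21.1 FPKM in the controls (-1.89, adjusted p = 0.000276). The kinase TTK, which starts checkpoint signalling, was at 11.3, 19.4, 3.89 and 4.02 FPKM in the fraction libraries, against 19.7, 20.9, 13.9 and 14.2 FPKM in the controls (-1.60, adjusted p = 0.000182). CDC25B, the phosphatase that first activates the cyclin-dependent kinase, was the 1 member that did not pass, at 59.8, 91.4, 94.8 and 97 FPKM in the fraction libraries, against 56.6, 92.8, 108 and 104 FPKM in the controls (-0.14, adjusted p = 0.158).

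All 22 kinesins and spindle proteins fell in the second table, with medians of -1.47 there and -0.27 in the first. KIF4A, a chromosome-associated kinesin, was at 29.5, 30.1, 7.79 and 7.77 FPKM in the fraction libraries, against 33.8, 32.6, 27.2 and 29.5 FPKM in the controls (-1.74 ± 0.076, adjusted p = 0.000145). TPX2, which nucleates spindle microtubules and activates Aurora A, was at 89, 88.1, 27.2 and 24.4 FPKM in the fraction libraries, against 125, 104, 78.9 and 83.8 FPKM in the controls (-1.62, adjusted p = 0.000182). Both were lower in the fraction library of each pair, by less in pairs 1 and 2 than in pairs 3 and 4. KIF20A, the kinesin of the central spindle whose promoter window lacked the CHR letters, was at 15.3, 26.5, 4.03 and 4.95 FPKM in the fraction libraries, against 21.7, 34.2, 28.7 and 35.6 FPKM in the controls (-2.59, adjusted p = 0.000182).

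All 20 kinetochore and passenger complex genes fell too, with medians of -1.38 and -0.30 in the second and first tables. NUF2, part of the NDC80 complex that holds microtubules, was at 15.7, 28.3, 5.08 and 4.45 FPKM in the fraction libraries, against 22.2, 31.1, 19.1 and 21.7 FPKM in the controls (-1.89, adjusted p = 0.000193). Of the 20, 18 were lower in pair 1, 16 in pair 2 and 14 in all 4 pairs. ZWINT was above its control in pair 1 and below it in pair 2, at 49.3 and 25.3 FPKM in fraction libraries 1 and 2, against 31.4 and 29.3 FPKM in the controls. It fell in the second table, at 11.7 and 11.9 FPKM, against 23.7 and 24.8 FPKM (-0.98, adjusted p = 0.000798). All 17 genes of anaphase, condensin and cytokinesis fell in the second table, with a median of -1.26. TOP2A, the topoisomerase that untangles sister chromatids, was at 73.2, 74.6, 21.9 and 21.7 FPKM in the fraction libraries, against 102, 70.7, 71 and 75.9 FPKM in the controls (-1.70, adjusted p = 0.000145). UBE2C, the ubiquitin-conjugating enzyme of the anaphase-promoting complex, was at 139.9, 78.5, 12.9 and 21.4 FPKM in the fraction libraries, against 132, 104, 59.7 and 65.9 FPKM in the controls (-1.85, adjusted p = 0.00241). In fraction library 2, TOP2A was above its control, and in fraction library 1, UBE2C was.

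**Figure D3:**
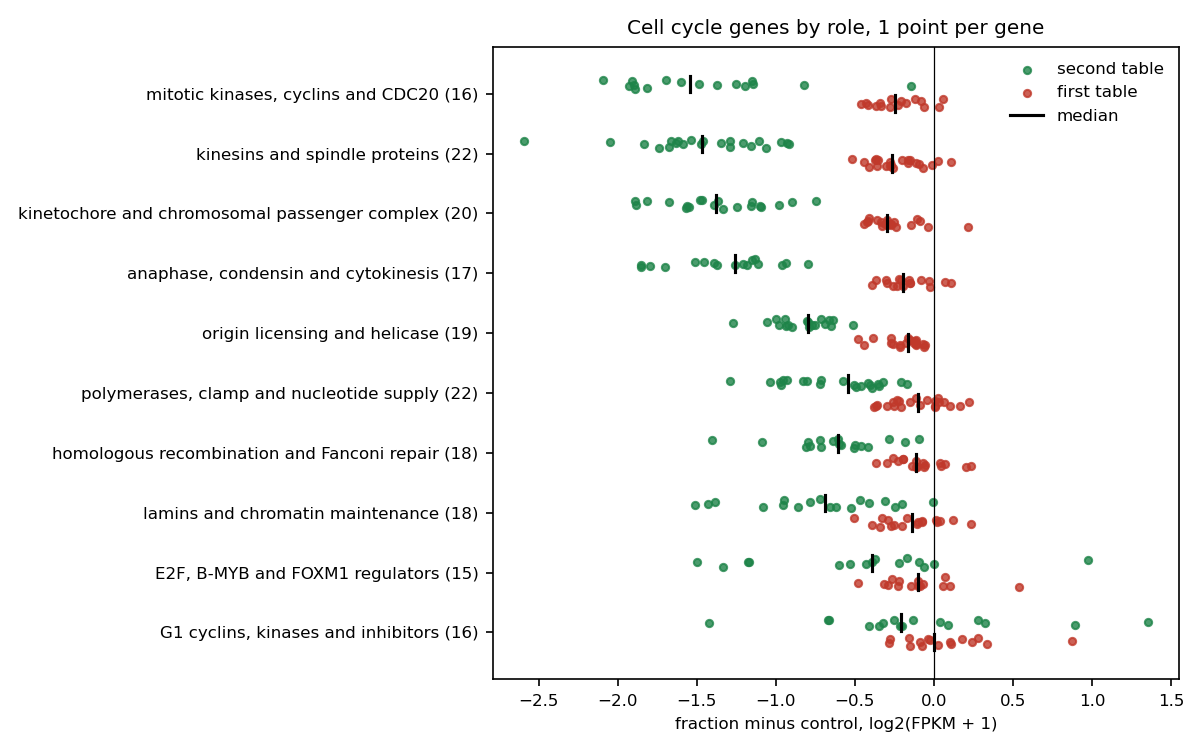
Fraction minus control difference, log2(FPKM + 1), of each tested gene on 10 cell cycle lists, second table (green) above first table (red), with the median as a black bar. Medians in the second table run from -1.55 for mitotic kinases to -0.21 for G1 genes, and those of the first table lie at or above -0.30.

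The DNA replication genes fell by less than the mitotic ones in size. All 19 origin licensing and helicase genes fell in the second table, as 13.6% of all genes tested did, with a median of -0.80 there and -0.16 in the first. In all 4 pairs 17 of them were lower, a direction held by 14.7% of genes tested. GINS2, a subunit of the replicative helicase, was at 8.55, 8.78, 2.39 and 3.12 FPKM in the fraction libraries, against 10.4, 15, 7.48 and 8.57 FPKM in the controls (-1.27 ± 0.14, adjusted p = 0.00228). MCM6, of the helicase ring, was at 19, 28.8, 18.8 and 18.8 FPKM in the fraction libraries, against 26.7, 35.7, 27.3 and 32.6 FPKM in the controls (-0.64, adjusted p = 0.00593). Each pair had the fraction library below its control for both genes. CHR letters were in 2 of 16 licensing promoters (12.5%), near the share of genes tested.

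Of 22 polymerase, clamp and nucleotide supply genes, 17 fell and none rose in the second table, where 13.6% and 9.5% of all genes tested did. Medians were -0.54 there and -0.10 in the first table. TYMS, thymidylate synthase, was at 10.9, 13.4, 3.85 and 5.56 FPKM in the fraction libraries, against 8.11, 14, 13.1 and 12.6 FPKM in the controls (-1.29, adjusted p = 0.00211). Its groups overlapped in the first table and did not in the second. Of 18 genes of homologous recombination and Fanconi repair, 15 fell and none rose, with a median of -0.61 in the second table. Of 18 lamin and chromatin maintenance genes, 14 fell, led by LMNB1, the B-type lamin, at 24.2, 29.3, 10.2 and 11 FPKM in the fraction libraries, against 36.5, 40.2, 31.7 and 32.4 FPKM in the controls (-1.51, adjusted p = 0.000193).

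The regulators of these genes were mixed. Of 15 E2F, B-MYB and FOXM1 regulators, 9 fell and 1 rose in the second table. MYBL2, the B-MYB factor that turns MuvB into an activator, was at 92.1, 75.2, 30.4 and 37.2 FPKM in the fraction libraries, against 86.8, 109, 97 and 96.3 FPKM in the controls (-1.50, adjusted p = 0.000402). E2F7, a repressor of E2F targets, was the 1 that rose, at 20.7, 17.9, 25.7 and 22.1 FPKM in the fraction libraries, against 18.4, 9, 11.6 and 11.7 FPKM in the controls (0.97, adjusted p = 0.00165), and it was higher in all 4 pairs. The retinoblastoma proteins RB1 and RBL2 did not pass, with differences of -0.096 and -0.065. Of 16 G1 cyclins, kinases and inhibitors, 4 fell and 2 rose, where 13.6% and 9.5% of all genes did. CDKN1A, the p21 inhibitor of cyclin-dependent kinases, was at 31.2, 14.2, 24.4 and 28.7 FPKM in the fraction libraries, against 17.7, 6.81, 10.3 and 9.27 FPKM in the controls (1.35 in the second table, adjusted p = 0.000636; 1.11 in both, adjusted p = 0.0566). CDKN2C, another inhibitor, fell in the second table, at 2.09 and 3.21 FPKM in fraction libraries 3 and 4, against 9.25 and 8.12 FPKM in the controls (-1.42, adjusted p = 0.00201).

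The integrated stress response genes rose in the second table. Of 17 regulators, 13 rose and none fell, where 9.5% and 13.6% of all genes tested did. The median was 1.32 in the second table and 0.11 in the first. In all 4 pairs 9 were higher, a direction held by 13.7% of genes tested. CHAC1, an enzyme that breaks down glutathione and a direct target of ATF4, was at 4.09, 3.01, 11.1 and 16.9 FPKM in the fraction libraries, against 2.01, 0.772, 1.01 and 1.94 FPKM in the controls (2.60 ± 0.25, adjusted p = 0.00132). Its promoter is shown as an example of the element that C/EBP-ATF factors bind, searched as TGATGNAAN on both strands. The 250 bases before the RefSeq start (GRCh38.p14, chr15:40953221-40953470, plus strand) hold 1 match, on the reverse strand, at -210, in capitals:
CHAC1: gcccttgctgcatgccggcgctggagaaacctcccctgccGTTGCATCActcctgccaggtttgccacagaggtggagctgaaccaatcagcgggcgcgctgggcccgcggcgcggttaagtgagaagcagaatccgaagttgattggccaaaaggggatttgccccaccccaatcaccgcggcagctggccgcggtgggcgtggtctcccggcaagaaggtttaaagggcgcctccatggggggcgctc
The element was in 3 of 16 regulators with a promoter (18.8%), in 3 of 10 amino acid transporters (30%) and in 2 of 11 serine and one-carbon genes (18.2%), against 3.67% of all promoters and 1.58% of those of genes tested. ATF4 itself was at 74, 118, 115 and 122 FPKM in the fraction libraries, against 65.1, 117, 61.5 and 67 FPKM in the controls (0.88, adjusted p = 0.000899). Its protein is set largely by translation, which RNA levels do not show. DDIT3, the CHOP factor of prolonged stress, was at 14, 7.25, 21.1 and 18.8 FPKM in the fraction libraries, against 11.3, 7.04, 6.7 and 4.28 FPKM in the controls (1.72, adjusted p = 0.0016). TRIB3, a pseudokinase that restrains ATF4, was at 47.2, 40.1, 93.3 and 108 FPKM in the fraction libraries, against 52.2, 32.5, 32.1 and 31.6 FPKM in the controls (1.63, adjusted p = 0.000273). For both genes the highest control was replicate 1, and fraction libraries 3 and 4 were above all other libraries. SESN2, a stress sensor that inhibits mTORC1, was at 9.49, 5.3, 17.5 and 19.2 FPKM in the fraction libraries, against 6.5, 2.7, 4.22 and 4.14 FPKM in the controls (1.90, adjusted p = 0.000163) and was higher in each pair. The kinases upstream, EIF2AK3 (PERK) and EIF2AK4 (GCN2), did not pass, with differences of -0.16 and 0.16.

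Amino acid supply rose with these regulators. Of 16 tested genes of serine, one-carbon and amino acid synthesis, 11 rose and 1 fell in the second table, where 9.5% and 13.6% of all genes tested did. The median was 0.78 there and 0.11 in the first table. PHGDH, the entry enzyme of serine synthesis, was at 3.54, 8.34, 20.6 and 21.9 FPKM in the fraction libraries, against 2.62, 5.12, 4.5 and 4.11 FPKM in the controls (2.07 ± 0.084, adjusted p = 0.000145). CTH, which makes cysteine from cystathionine, was at 1.84, 17.5, 32.6 and 30.2 FPKM in the fraction libraries, against 2.79, 9.31, 8.11 and 8.63 FPKM in the controls (1.79, adjusted p = 0.00056). In replicate 1 CTH was low in both groups and the fraction library was the lower one. ALDH1L2, a mitochondrial folate enzyme, was at 1.29, 3.55, 12.5 and 10.5 FPKM in the fraction libraries, against 1.07, 1.58, 2.95 and 2.87 FPKM in the controls (1.67, adjusted p = 0.000352). MTHFD1, the cytosolic folate enzyme used in purine and thymidylate synthesis, was the 1 that fell (-0.49, adjusted p = 0.00476), while its mitochondrial relatives MTHFD2 and MTHFD1L rose (0.65 and 0.68).

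Of 11 amino acid transporters, 9 rose and none fell in the second table, where 9.5% and 13.6% of all genes tested did. The median was 0.70 there and 0.14 in the first table. SLC7A5, the light chain of the large neutral amino acid exchanger, was at 149, 212, 388 and 438 FPKM in the fraction libraries, against 126, 106, 108 and 122 FPKM in the controls (1.83 ± 0.092, adjusted p = 0.000183). Its heavy chain SLC3A2 was at 74.4, 81.1, 88.8 and 114 FPKM in the fraction libraries, against 65, 60.0, 37.2 and 40.5 FPKM in the controls (1.35, adjusted p = 0.00107). Both chains were higher in the fraction library of each pair. Of 18 cytosolic tRNA synthetases, 12 rose and 1 fell, with a second-table median of 0.49. AARS, the alanine enzyme, was at 69, 78.8, 185 and 184 FPKM in the fraction libraries, against 53.8, 67.4, 77.6 and 76.9 FPKM in the controls (1.25, adjusted p = 0.000182), whereas KARS, the lysine enzyme, fell (-0.29, adjusted p = 0.0388).

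Protein folding and degradation genes were mixed or lower. Of 21 unfolded protein response genes, 3 rose and 3 fell, where 9.5% and 13.6% of all genes did, with a median of -0.04. HSPA5, the main chaperone of the endoplasmic reticulum, was at 196, 397, 457 and 385 FPKM in the fraction libraries, against 225, 371, 308 and 297 FPKM in the controls (0.47, adjusted p = 0.0188), and XBP1 rose by 0.45. DNAJC3, a co-chaperone that inhibits PERK, fell (-0.64, adjusted p = 0.019). The cytosolic chaperones were lower more often than higher. Of 17 heat shock proteins, 11 fell and 1 rose, with medians of -0.38 in the second table and -0.071 in the first. DNAJA1, an HSP70 co-chaperone, was at 95.4, 82.5, 43.6 and 40.0 FPKM in the fraction libraries, against 123, 105, 70.3 and 74.8 FPKM in the controls (-0.78, adjusted p = 0.0021), lower in each pair. The mitochondrial chaperone HSPA9 was the 1 that rose (0.32, adjusted p = 0.0301). Of 24 proteasome subunits, 14 fell and none rose, with medians of -0.45 and -0.11 in the second and first tables. In all 4 pairs 12 were lower, a direction held by 14.7% of genes tested. PSMB2, a core subunit of the beta ring, was at 28.4, 38.6, 17.6 and 17.1 FPKM in the fraction libraries, against 34.3, 48.9, 27.7 and 30.5 FPKM in the controls (-0.71, adjusted p = 0.00224).

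Hypoxia-inducible genes mostly rose in the second table. Of 22, 16 rose and 1 fell there, where 9.5% and 13.6% of all genes tested did. Their median was 0.57, against 0.15 in the first table. In all 4 pairs 13 were higher, a direction held by 13.7% of genes tested. In pair 1, 9 of the 22 were lower, and the median was 0.07. VEGFA, the angiogenic factor, was at 10.5, 13.4, 37.7 and 39.5 FPKM in the fraction libraries, against 7.05, 8.6, 14.2 and 13.1 FPKM in the controls (log2 difference, both tables fitted together, 0.99 ± 0.18, adjusted p = 0.0489). DDIT4, an inhibitor of mTORC1 also known as REDD1, was at 8.6, 8.82, 55.7 and 67.1 FPKM in the fraction libraries, against 4.14, 4.74, 16.5 and 14.1 FPKM in the controls (1.93 in the second table, adjusted p = 0.000428). Both genes were higher in the second table than in the first in both groups, and higher in the fraction library of each pair. BNIP3, a mitophagy receptor, was at 22.6, 18.5, 30.0 and 27.3 FPKM in the fraction libraries, against 22.8, 14.3, 9.12 and 10.3 FPKM in the controls (1.47, adjusted p = 0.000329). CA9, the carbonic anhydrase most tied to low oxygen, was at 0.94, 3.97, 6.07 and 7.25 FPKM in the fraction libraries, against 0.366, 2.57, 2.14 and 1.43 FPKM in the controls (1.47, adjusted p = 0.00305). HIF1A, the oxygen-regulated subunit of the factor, was the 1 that fell, at 119.6, 152, 99.9 and 84.8 FPKM in the fraction libraries, against 177, 136, 139 and 137 FPKM in the controls (-0.57, adjusted p = 0.00676).

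Of 21 genes of glucose uptake and glycolysis, 12 rose and 2 fell in the second table, where 9.5% and 13.6% of all genes tested did. Medians were 0.43 there and 0.19 in the first table. HK2, the inducible hexokinase, was at 34.4, 23.3, 33.6 and 33.7 FPKM in the fraction libraries, against 30.5, 14.8, 18.3 and 17.6 FPKM in the controls (0.87, adjusted p = 0.000828). Enolase forms moved apart. ENO1, the common enolase, fell (-0.26, adjusted p = 0.0322), as did PKM, pyruvate kinase (-0.27, adjusted p = 0.0271), whereas ENO2, the neuronal form, rose (1.0, adjusted p = 0.00177). LDHA, lactate dehydrogenase, did not pass, at 386, 673, 427 and 395 FPKM in the fraction libraries, against 447, 595, 421 and 434 FPKM in the controls (-0.056, adjusted p = 0.622).

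Chemokines and cytokines split. Of 19, 8 fell and 4 rose in the second table, where 13.6% and 9.5% of all genes tested did. The median was -0.17 there and 0.12 in the first. CXCL8, the neutrophil chemokine IL-8, was at 21.1, 60.6, 7.64 and 5.86 FPKM in the fraction libraries, against 35.8, 79.3, 26.8 and 26.7 FPKM in the controls (-1.85 in the second table, adjusted p = 0.000929). IL24, a cytokine of the IL-10 family, rose, at 49.5, 39.5, 25.9 and 23.1 FPKM in the fraction libraries, against 27.6, 9.39, 5.67 and 6.83 FPKM in the controls (1.82, adjusted p = 0.000494; 1.60 in both tables, adjusted p = 0.0852). LIF, which shares the gp130 receptor with IL11, was at 32.3, 31.1, 42.4 and 50.8 FPKM in the fraction libraries, against 20.1, 24.3, 31.3 and 32 FPKM in the controls (0.54, adjusted p = 0.0107). IL24 and LIF were higher in the fraction library of each pair, and CXCL8 was lower in each. IL6 did not pass, at 9.18, 28.8, 8.87 and 9.07 FPKM in the fraction libraries, against 10.7, 18.1, 8.82 and 10.2 FPKM in the controls (-0.072, adjusted p = 0.673).

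Of 19 NF-kB feedback and acute phase genes, 12 fell and 1 rose in the second table, where 13.6% and 9.5% of all genes tested did. Medians were -0.59 there and -0.04 in the first table. BIRC3, an inhibitor of apoptosis induced by NF-kB, was at 2.6, 5.82, 2.43 and 2.01 FPKM in the fraction libraries, against 4.86, 7.4, 8.81 and 7.76 FPKM in the controls (-1.53 ± 0.11, adjusted p = 0.000494). NFKBIA, the inhibitor that closes the loop, was at 43.4, 56.1, 21.9 and 22.1 FPKM in the fraction libraries, against 32.5, 66.4, 44.8 and 42.3 FPKM in the controls (-0.95, adjusted p = 0.000523). BIRC3 was lower in each pair, whereas NFKBIA was higher in the fraction library of pair 1. The subunits RELA and NFKB2 did not pass (0.039 and 0.13), and PTGS2, the inducible cyclooxygenase, was at 42.2, 20.7, 7.05 and 6.24 FPKM in the fraction libraries, against 31.3, 6.08, 5.19 and 5.29 FPKM in the controls (0.29, adjusted p = 0.128).

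Of 12 tested SERPINB and S100 genes of epithelium, 9 fell and 2 rose in the second table, where 13.6% and 9.5% of all genes tested did. Medians were -0.66 there and -0.071 in the first table. S100A9, a calcium-binding protein of inflamed epithelium and myeloid cells, was at 3.72, 6.16, 2.87 and 2.73 FPKM in the fraction libraries, against 3.09, 25.4, 42.7 and 28.3 FPKM in the controls (-3.23, adjusted p = 0.000483). S100A6, an abundant relative, rose, at 1003, 1021, 1086 and 1306 FPKM in the fraction libraries, against 412, 910.4, 856 and 882 FPKM in the controls (0.46, adjusted p = 0.0205). For S100A9 the fraction library was above its control in pair 1 and below it in the other pairs.

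Of 35 interferon-stimulated genes, 22 fell and none rose in the second table, with medians of -0.60 there and -0.13 in the first. IFIT1, which binds foreign RNA ends, was at 9.59, 8.08, 2.78 and 3.39 FPKM in the fraction libraries, against 11, 10.4, 9.72 and 9.22 FPKM in the controls (-1.36, adjusted p = 0.00132). IFITM3, which blocks viral entry, was at 124, 197, 124 and 148 FPKM in the fraction libraries, against 125, 284, 308 and 274 FPKM in the controls (-1.09, adjusted p = 0.00179). IFITM genes are near-identical copies, so their reads could have been split. ISG15, the ubiquitin-like modifier, did not pass and was higher in the fraction library of each pair, at 172, 95.1, 67.6 and 84.8 FPKM, against 108, 81.9, 66.1 and 69.2 FPKM in the controls (0.16, adjusted p = 0.411). In class I antigen presentation, 3 of 15 genes rose and 5 fell, where 9.5% and 13.6% of all genes did. Among those that fell, the immunoproteasome subunit PSMB8 was at 17, 31.7, 14.9 and 18.1 FPKM in the fraction libraries, against 15.6, 39.7, 31.7 and 30.1 FPKM in the controls (-0.87, adjusted p = 0.00256).

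EGFR, the mutated driver of these cells, was at 38.8, 19.5, 33.4 and 31.7 FPKM in the fraction libraries, against 36.8, 14.7, 28 and 29 FPKM in the controls, and did not pass in the second table (0.18, adjusted p = 0.117). Of 9 tested EGFR family members and ligands, 2 rose, the ligands TGFA and AREG, where 9.5% of all genes tested did. TGFA was at 26.8, 7.16, 7.83 and 8.54 FPKM in the fraction libraries, against 21.9, 4.07, 4.07 and 5.34 FPKM in the controls (0.69, adjusted p = 0.0108). The fraction library was above its control in each pair for TGFA. Receptors that are known to bypass EGFR did not pass: MET had a difference of -0.061 (adjusted p = 0.629), AXL of 0.22 (adjusted p = 0.22), IGF1R of 0.23 (adjusted p = 0.108) and ERBB2 of -0.04 (adjusted p = 0.817). The signs of MET and ERBB2 turned when 1 fraction library was left out, to 0.0123 and 0.068. ERBB3 was below the filter and was not tested.

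Feedback genes of the ERK pathway were higher. Of 18, 10 rose and none fell in the second table, where 9.5% and 13.6% of all genes tested did. Medians were 0.34 there and 0.29 in the first. DUSP6, the ERK phosphatase, was at 5.58, 4.51, 8.87 and 7.5 FPKM in the fraction libraries, against 3.15, 2.77, 4.25 and 4 FPKM in the controls (log2 difference, both tables fitted together, 0.72 ± 0.11, adjusted p = 0.0357). SPRY4, a feedback inhibitor of receptor signalling, was at 3.47, 2.67, 4.84 and 4.51 FPKM in the fraction libraries, against 2.91, 1.86, 1.77 and 1.92 FPKM in the controls (1.0, adjusted p = 0.00332). Both were higher in the fraction library of each pair. The immediate early genes FOS and EGR1 did not pass, with differences of -0.22 and 0.065. MYC rose in the second table, at 187 and 227 FPKM in fraction libraries 3 and 4, against 120.2 and 135 FPKM in the controls (0.69, adjusted p = 0.00678), and was lower in the fraction libraries of the first, at 113 and 299 FPKM, against 132 and 365 FPKM in the controls.

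Of 20 p53 targets, 5 rose and 1 fell in the second table, where 9.5% of all genes tested rose and 13.6% fell. Apart from CDKN1A and SESN2, which other lists also hold, the death receptor TNFRSF10B was at 24.8, 20.3, 31.3 and 32.1 FPKM in the fraction libraries, against 19.2, 17.9, 25.4 and 24 FPKM in the controls (0.35, adjusted p = 0.0166). MDM2 and BAX, core targets, did not pass (-0.11 and -0.28). Of 19 BCL2 family and death receptor genes, 2 rose and 4 fell, where 9.5% and 13.6% of all genes did. TNFSF10, the death ligand TRAIL, fell, at 0.0603, 1.19, 0.53 and 0.505 FPKM in the fraction libraries, against 0.132, 4.88, 8.19 and 7.26 FPKM in the controls (-2.52, adjusted p = 0.000273). BMF, a pro-apoptotic BH3-only protein, fell as well, at 0.798, 2.1, 1.15 and 1.86 FPKM in the fraction libraries, against 0.88, 3.28, 7.54 and 7.38 FPKM in the controls (-1.77, adjusted p = 0.00159). Replicate 1 held almost no TNFSF10 in either group. MCL1, the survival factor, was at 94.4, 105, 97 and 94.4 FPKM in the fraction libraries, against 90.3, 105, 96.9 and 99.6 FPKM in the controls (-0.038, adjusted p = 0.736).

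**Figure D4:**
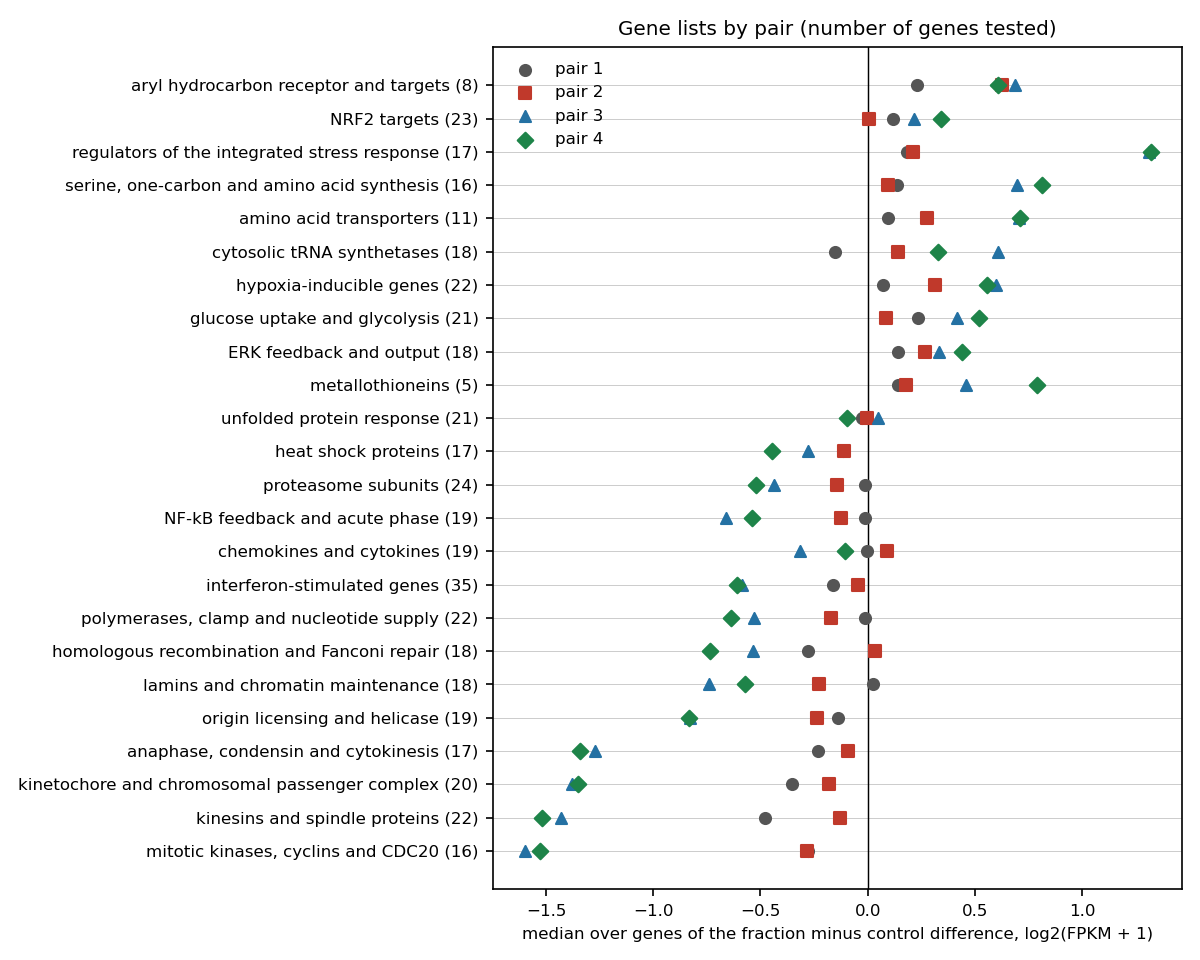
Median over the tested genes of 24 lists of the fraction minus control difference, log2(FPKM + 1), in each of pairs 1 to 4; the number of genes is in brackets. In pairs 3 and 4 the medians spread from the mitotic lists at the low end to the integrated stress response at the high end, and in pairs 1 and 2 they lie closer to 0.

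The difference of the effect between the tables was tested as an interaction. It passed for 64 genes, of which 21 were higher (0.162% of genes tested) and 43 lower (0.332%) in the second table than in the first. Of the 21, 20 were called in the second table alone, and of the 43, 42 were. In the first table, 6 of the 21 were lower in the fraction and 21 of the 43 were higher, the opposite direction. FER1L4, a pseudogene transcript, had the second-table values 14.3 and 13.3 FPKM in the fraction libraries, against 1.35 and 1.38 FPKM in the controls, and the first-table values 10.1 and 1.53 FPKM, against 5.51 and 0.561 FPKM (difference 1.92, adjusted p = 0.0132). PCK2, the mitochondrial enzyme that makes phosphoenolpyruvate, had 34.4 and 37.9 FPKM in fraction libraries 3 and 4, against 5.79 and 5.95 FPKM in the controls, and 4.2 and 10.04 FPKM in fraction libraries 1 and 2, against 2.96 and 5.92 FPKM (difference 1.90, adjusted p = 0.0132). MKI67, the proliferation antigen, had 10.3 and 10.3 FPKM in fraction libraries 3 and 4, against 38.6 and 41.4 FPKM in the controls, and 30.5 and 21.5 FPKM in fraction libraries 1 and 2, against 35.1 and 23.1 FPKM (difference -1.70, adjusted p = 0.0132). For MKI67, fraction libraries 3 and 4 were the lowest of the 8. Just 1 gene, CCL2, was among both the 64 of this test and the 64 called in both tables. The count of this test was 5 without replicate 3, 14 without replicate 4, 215 without replicate 2 and 1 with the fraction and control libraries alone.

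Set against magnolin in the second table, the fraction had 898 genes higher (6.93%) and 1531 lower (11.8%), or 1080 and 1155 after median-ratio rescaling. The sum of 2429 was 646 without magnolin 3, 414 without magnolin 4, 1320 without control 3 and 1314 without control 4, the controls serving only the estimate of spread. In the second table all 22 kinesin and spindle genes and all 20 kinetochore genes were lower after the fraction than after magnolin. CCNB2 was at 6.09 and 7.22 FPKM in fraction libraries 3 and 4, against 27.4 and 22.9 FPKM in the magnolin libraries of the same numbers (difference -1.77, adjusted p = 0.000752). The first table, in which the comparison with magnolin was not tested, did not have this order throughout. There PLK1 was at 42.8 and 34.5 FPKM in fraction libraries 1 and 2, against 38.1 and 18.3 FPKM in magnolin libraries 1 and 2, and NUF2 was at 15.7 and 28.3 FPKM, against 18.9 and 10.3 FPKM. In replicate 2 both genes were thus lower after magnolin. CYP1A1 was at 20.2 and 23.3 FPKM after the fraction, against 6.43 and 10.8 FPKM after magnolin (1.27, adjusted p = 0.0124), and the controls of the same numbers were at 1.24 and 1.37 FPKM. Of 17 integrated stress response regulators, 12 were higher after the fraction in the second table, TRIB3 among them at 93.3 and 108 FPKM, against 41.9 and 37.6 FPKM after magnolin (1.32, adjusted p = 0.000989). In the first table some amino acid stress genes had the opposite order. CHAC1 was at 4.09 and 3.01 FPKM in fraction libraries 1 and 2, against 6.01 and 6.93 FPKM in the magnolin libraries, and PHGDH was at 3.54 and 8.34 FPKM, against 6.16 and 14.3 FPKM. CYP1B1 did not differ past the threshold, at 431 and 380.4 FPKM after the fraction, against 330.2 and 350.3 FPKM after magnolin (0.25, adjusted p = 0.0854).

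Technical measures moved with the groups of the second table. Mitochondrial transcripts took 8.17% and 7.04% of rebuilt reads in fraction libraries 3 and 4, against 5.84% and 5.83% in the controls, and noncoding genes took 4.27% and 3.95%, against 2.95% and 2.89%. Both shares were higher in both fraction libraries there. In the first table they were 7.6% and 8.42%, against 9.42% and 8.06%, and 2.73% and 2.88%, against 3.12% and 3.16%, so that pair 2 alone had the higher mitochondrial share after the fraction and neither pair had the higher noncoding share. Of 2104 noncoding genes, 216 rose and 101 fell in the second table, and of 10850 protein-coding genes 1014 rose and 1665 fell. Over all genes tested 9.5% rose and 13.6% fell, so noncoding genes differed mainly in falling less often. Of the 13 markers of other cell types, COL1A1 and COL1A2 were the ones tested. COL1A2 fell in the second table and was not lower in the first, at 1.14, 16.3, 7.94 and 8.29 FPKM in the fraction libraries, against 1.09, 11.2, 21.1 and 15.9 FPKM in the controls (-1.08, adjusted p = 0.00286). The markers PTPRC, CD3E, LYZ, HBB and HBA1, which mark blood cells, were at or near 0. The part of these measures in the results was not tested.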

How the data were processed

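RNA-seq of NCI-H1975 cells was analysed from gene tables of FPKM values made by the authors, per the file headers, with genome build hg38 per the submitters' processing notes. The unknown aligner, counter and strandedness (not given in the sources used here) leave antisense and overlapping genes uncertain. In each deposited column, multiplying FPKM by gene length gave steps of whole reads for 100% of values up to 2000 reads (tolerance 0.05), from which read totals were rebuilt. 2 columns matched no label and were not used. Genes with at least 1 FPKM in 4 of 8 libraries were tested on log2(FPKM + 1) with limma 3.58.1 (R 4.3.3, trended empirical Bayes, Benjamini-Hochberg). Simulated data were used to test the code. Tables were fitted apart, without a block, and together with the replicate number as a block. Magnolin libraries shared the estimate of spread. Libraries were paired by replicate number, as the comparison was set. Over both tables same-numbered libraries deviated together in all 12 pairs (r 0.29 to 0.872), and 10 of 12 resembled their own number most. These r also hold the difference between the tables and that of replicate 1 from the others. Within the second table alone r was -0.0458 to 0.0704, so the data do not show which of its libraries belong together. Alternatives changed the pseudocount, filter, scaling, test (voom on rebuilt reads), libraries and block. Named genes are all those called in both tables, the 15 largest rises and falls in the second table and over the 4 pairs, up to 5 called members a list, the 6 with the smallest p for the difference between tables, and the receptors EGFR, MET, AXL, IGF1R, ERBB2 and ERBB3. Some genes of the lists are not reported here. Other genes named were chosen after their values were seen. Genes and lists were chosen with earlier results of these data known.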

Additional observations from a re-analysis of the deposited data

Results flagged for a closer look

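Of 272 named genes, 28 had a fraction effect that differed between the tables by the interaction test (second minus first, limma with Benjamini-Hochberg adjustment), where 64 of all 12954 genes tested did (0.494%). The named genes were chosen in part by this test and by large changes in the second table, so the 2 shares cannot be compared. The tables differ in replicate numbers and in their separate normalization, and what sets them apart was not tested. Among amino acid stress genes the difference was 1.90 for PCK2 (adjusted p = 0.0132), 1.60 for PHGDH (adjusted p = 0.0179), 1.56 for PSAT1 (adjusted p = 0.0246), 1.55 for TRIB3 (adjusted p = 0.0437), 1.24 for CEBPG (adjusted p = 0.029) and 1.86 for GDF15 (adjusted p = 0.0374). GDF15, a stress-induced cytokine, was at 24.4, 21.2, 76 and 104 FPKM in the fraction libraries, against 21.7, 18, 20.3 and 21.3 FPKM in the controls. Other genes with a higher effect in the second table were NDRG1 (1.85, adjusted p = 0.033), ADM2 (2.03, adjusted p = 0.029), KLHDC7B (2.10, adjusted p = 0.0287) and SPAG4 (1.58, adjusted p = 0.0326). So were FER1L4 (1.92, adjusted p = 0.0132), RPLP0P2 (2.0, adjusted p = 0.0132) and MT-RNR2 (1.46, adjusted p = 0.0373). MT-RNR2 was lower in the fraction library of each first-table pair, so its effect changed direction between the tables.

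Among cell cycle genes the difference was -2.18 for KIF20A (adjusted p = 0.0326), -1.70 for MKI67 (adjusted p = 0.0132), -1.68 for BUB1B (adjusted p = 0.0326), -1.59 for KIF4A (adjusted p = 0.0355), -1.36 for NCAPD2 (adjusted p = 0.0326) and -1.28 for FOXM1 (adjusted p = 0.0393). FOXM1, the factor that joins B-MYB at mitotic promoters, was at 38.5, 18.7, 8.7 and 9.65 FPKM in the fraction libraries, against 30.0, 20.7, 20.9 and 23.1 FPKM in the controls.

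Among inflammatory, interferon and matrix genes it was -2.69 for CCL2 (adjusted p = 0.0208), -2.25 for CXCL1 (adjusted p = 0.0132), -2.09 for IL7R (adjusted p = 0.0109), -1.88 for APOBEC3B (adjusted p = 0.0326), -1.36 for OAS3 (adjusted p = 0.031), -1.12 for IFITM1 (adjusted p = 0.0374), -2.12 for MGP (adjusted p = 0.0458), -1.45 for TNC (adjusted p = 0.0179) and -1.35 for COL1A2 (adjusted p = 0.0433). CXCL1 was at 17.9, 52.3, 5.26 and 5 FPKM in the fraction libraries, against 17.5, 78.6, 34.7 and 33.9 FPKM in the controls. APOBEC3B, OAS3 and IFITM1 have close relatives whose reads could be shared with them.

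For 3 of 80 genes (3.75%), 1 of the 4 pair differences stood far from the other 3. The cut used is one that chance passes at about 1 in 20. Most of the 80 genes were chosen for like differences in the pairs, so the 2 shares cannot be compared. The 3 genes were RPS7P10 with -1.0 in pair 1, ICK with -0.354 in pair 2 and BMP2 with 0.234 in pair 1.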

How the results depend on the processing

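Both tables together gave 64 called genes, 0 with no filter on low values (3616 at an unadjusted p below 0.05), 113 with a mean of at least 5 FPKM, 312 with voom on rebuilt reads, 0 with fraction and control libraries alone (2664 unadjusted) and 1 with a table term and no replicate block. Leaving out a replicate number gave 0 to 110. The second table gave 2996 calls, 1523 with no filter, 2455 (19%) with the replicate block, and 976 to 3425 when 1 library was left out. The first table gave 0 (112 unadjusted), 99 with no filter, where low genes entered, and 10 with the replicate block. Fraction against magnolin gave 2429, 652 with no filter and 414 to 3363 without 1 library. The difference between the tables gave 64, 32 with no filter, 162 with a mean of at least 5 FPKM, 303 with voom, 1 with fraction and control libraries alone, 0 with a table term and no replicate block (557 unadjusted), and 5 to 215 without a replicate number. Why these counts moved was not tested beyond the numbers of genes and libraries that each setting leaves. Of values for single genes, 3 changed sign: MET in both tables (-0.19 to 0.0137 when 1 replicate number was left out), MET in the second table (-0.133 to 0.0123 when 1 library was left out) and ERBB2 there (-0.147 to 0.068). For the second table, 2652 gene values kept their direction and side of the threshold, 144 lost the call and 2 gained it. For both tables, 425 kept them, 413 lost the call and 19 gained it.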

Other observations

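Lysosomal and lipid genes were not described above. Of 22 autophagy and lysosome genes, 8 rose and 2 fell in the second table, where 9.5% and 13.6% of all genes tested did. Their median was 0.03, against -0.03 over all genes. SQSTM1, the selective autophagy receptor p62, was at 51.2, 49.5, 89.3 and 101 FPKM in the fraction libraries, against 46.2, 47, 39.1 and 41.5 FPKM in the controls (1.21, adjusted p = 0.000409). CTSD, a lysosomal protease, was at 74.4, 101, 238 and 312 FPKM in the fraction libraries, against 48.7, 114, 144 and 129 FPKM in the controls (0.99, adjusted p = 0.00371). The vacuolar pump genes ATP6V0D1 and ATP6V1H did not pass (-0.17 and -0.013). Of 15 PPAR target and fatty acid oxidation genes, 7 rose and 1 fell, with a median of 0.13. PLIN2, a coat protein of lipid droplets, was at 68.7, 62.1, 104 and 90.5 FPKM in the fraction libraries, against 79.4, 37.9, 29.9 and 34.8 FPKM in the controls (1.56, adjusted p = 0.000425). Of 26 cholesterol and fatty acid synthesis genes, 8 fell and 2 rose, where 13.6% and 9.5% of all genes tested did, with a median of -0.17.

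Transcripts of the mitochondrial genome, which come from shared long precursors, moved apart in the second table, where 6 of 15 rose and 2 fell. MT-RNR2, the large ribosomal RNA, was at 4891, 6396, 9778 and 8245 FPKM in the fraction libraries, against 7373, 7715, 4468 and 4363 FPKM in the controls (1.02, adjusted p = 0.00153). MT-CYB, cytochrome b, was at 3016, 3524, 1795 and 1575 FPKM in the fraction libraries, against 3913, 3428, 2619.6 and 2589 FPKM in the controls (-0.63, adjusted p = 0.00422). Of 31 nuclear respiratory chain subunits, 13 fell and none rose, with a median of -0.24. Of 447 antisense genes 45 rose and 18 fell, and of 354 lincRNA genes 50 rose and 24 fell, where 9.5% and 13.6% of all genes tested did. Antisense genes thus rose about as often as all genes and fell less often, and lincRNA genes rose more often and fell less often. Of 10850 protein-coding genes, 1014 rose and 1665 fell. Strandedness is not given, so reads of antisense genes cannot be told apart from those of their partners.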
